A study of Homo sapiens with 16 samples.

Results

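p65 binding was compared between SW480 and HT29 cells that express ERβ, in 55871 genomic bins of 200 bp out of 15155200 on chromosomes 1 to 22 and X (0.369%). The bins were chosen by one limit, a mean signal of at least 1 over the 6 p65 ChIP tracks of both lines, and bins with at most 1 bin between them were joined into 22324 regions. SW480 and HT29 are established lines of human colorectal adenocarcinoma. Both had been stably transfected with ERβ or with an empty vector (mock) and kept under blasticidin, and every culture received TNFα at 30 ng/ml for 30 min before crosslinking with disuccinimidyl glutarate and formaldehyde. ChIP-Seq with an antibody against p65 gave 3 libraries for each line and construct, and each was read beside 1 input library of the same line and construct. The ERβ inputs were deposited with another set of libraries, the labels list the antibody and TNFα on the inputs too, and they were read here as inputs. Per the methods no estrogen was added. They call the replicates biological, but neither they nor the labels say how the cultures were kept apart or whether a stable line was 1 clone, so p-values here measure the spread between these libraries.

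p65 (RELA) is the main activating subunit of NFκB. In resting cells it is held in the cytoplasm by IκB proteins, and TNFα leads to the loss of IκBα and to entry of p65 into the nucleus, where it binds κB sites in DNA and raises the transcription of chemokine, survival and feedback genes. ERβ, encoded by ESR2, is a nuclear receptor and the main form of estrogen receptor in the colon epithelium. The comparison asks which p65 sites were held by one of the lines, and which by both, when ERβ was present. In a pool of cells, more bound cells and more binding per cell cannot be told apart.

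The sequences of 7 summit bins show what each kind of bin looked like. A summit is the bin of a region with the highest mean over the 6 ChIP tracks. All are given 5′ to 3′ on the plus strand of hg38, and none overlaps an annotated exon. In the bins of both lines, HOOK2 (chr19:12793601-12793800) and SLC28A1 (chr15:84930201-84930400) were among the strongest, CCL2 (chr17:34252601-34252800) was far higher in SW480 and KYNU (chr2:142874401-142874600) far higher in HT29. Capitals mark matches to the NFκB consensus of 10 bases on either strand.
HOOK2: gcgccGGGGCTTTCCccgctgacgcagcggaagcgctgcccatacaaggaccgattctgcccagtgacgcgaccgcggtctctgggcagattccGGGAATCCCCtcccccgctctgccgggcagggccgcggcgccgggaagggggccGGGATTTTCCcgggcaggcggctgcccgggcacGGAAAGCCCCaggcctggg
SLC28A1: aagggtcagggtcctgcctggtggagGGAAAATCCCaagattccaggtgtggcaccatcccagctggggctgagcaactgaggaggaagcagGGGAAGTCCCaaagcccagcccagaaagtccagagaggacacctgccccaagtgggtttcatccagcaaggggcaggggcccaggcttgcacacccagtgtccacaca
CCL2: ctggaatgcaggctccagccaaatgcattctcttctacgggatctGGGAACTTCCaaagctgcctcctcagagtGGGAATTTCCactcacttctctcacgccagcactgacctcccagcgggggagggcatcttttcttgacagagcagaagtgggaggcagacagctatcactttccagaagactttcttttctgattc
KYNU: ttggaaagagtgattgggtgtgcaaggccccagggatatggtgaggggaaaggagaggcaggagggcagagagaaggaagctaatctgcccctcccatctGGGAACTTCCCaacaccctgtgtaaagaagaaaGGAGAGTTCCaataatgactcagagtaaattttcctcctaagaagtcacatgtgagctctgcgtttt
PRKAR2A (chr3:48770201-48770400) and UNC93A (chr6:167292201-167292400) were specific to SW480. The former holds a pair of NFκB matches. The latter holds no match to the full consensus, though it does hold the shorter word gggaattcc, and its capitals mark the RUNX word TGTGGTC. Sites that depart from the full consensus were not counted in any bin.
PRKAR2A: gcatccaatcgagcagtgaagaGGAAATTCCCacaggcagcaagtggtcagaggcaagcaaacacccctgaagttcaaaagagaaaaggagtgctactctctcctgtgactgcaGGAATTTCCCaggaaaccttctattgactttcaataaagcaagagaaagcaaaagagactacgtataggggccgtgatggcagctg
UNC93A: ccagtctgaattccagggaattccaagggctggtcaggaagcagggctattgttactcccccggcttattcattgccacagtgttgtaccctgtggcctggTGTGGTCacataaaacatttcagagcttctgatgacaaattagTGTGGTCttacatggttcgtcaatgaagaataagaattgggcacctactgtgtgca
PIGR (chr1:206942001-206942200) was specific to HT29, again with NFκB matches in capitals. Its 2 matches overlap.
PIGR: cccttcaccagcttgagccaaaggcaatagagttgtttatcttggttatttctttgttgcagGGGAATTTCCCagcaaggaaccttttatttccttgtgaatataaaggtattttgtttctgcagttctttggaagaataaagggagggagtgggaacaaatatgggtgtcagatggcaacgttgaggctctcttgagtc

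Signal is the deposited coverage, in tags per base after the authors' scaling to 10 M tags (M, a count of 1e6). Tracks on this scale do not hold the depth in reads, so no counting interval is given for a level. The study reports mapped reads per sample, which were not used here. Each of the 6 ERβ ChIP libraries followed the chromosome profile of its own line, with r from 0.973 to 0.991 against the inputs of that line over 2842 windows of 1 Mb and from 0.607 to 0.722 against those of the other line. The ERβ construct showed as signal in the 8 coding exons of ESR2, whose density was 2.44, 3.10 and 2.98 times that of the introns in the SW480 ERβ libraries and 7.06, 5.07 and 3.90 times in the HT29 ERβ libraries, against 1.07 to 1.61 in the 6 mock libraries. The ERβ inputs gave 1.98 in SW480 and 2.38 in HT29, and the mock inputs 1.52 and 1.24. These ratios are of DNA and do not measure how much ERβ was made. The study states that the introduced ERβ was expressed at a higher level in SW480 than in HT29. Libraries of a group differed in strength. HT29 ERβ replicate 1 held 0.837% of its track in enriched bins and replicates 2 and 3 held 0.441% and 0.426%, while SW480 ERβ replicate 1 held 0.680% and replicates 2 and 3 held 1.14% and 1.05%. The inputs held 0.135% in SW480 and 0.155% in HT29.

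At the signal limit of 1, more bins were higher in SW480 ERβ than in HT29 ERβ. By limma on log2(signal + 1), with a Benjamini-Hochberg adjusted p under 0.05 over all 55871 bins, 19267 bins (34.5%) were higher in SW480 ERβ and 5880 (10.5%) in HT29 ERβ. All 3 SW480 libraries stood above all 3 HT29 libraries in 22351 bins (40.0%), and the reverse held in 6993 (12.5%). The balance depended on the signal limit and on the scaling. With a limit of 0.5 it turned, with 112758 bins higher in SW480 and 125857 in HT29. When libraries were centred on the bins bound in both lines, the median difference of all bins moved by -0.24 on the log2 scale, and 8803 bins were called for SW480 against 7761 for HT29, so that the share of calls that favoured SW480 was 53.1% in place of 76.6%. The mean log2(signal + 1) per library over all bins was 1.31, 1.54 and 1.5 in SW480 ERβ and 1.33, 1.06 and 1.06 in HT29 ERβ. These groups overlapped, and their difference of 0.30 had p = 0.2 in an exact two-sided permutation test, which cannot go below 0.1 with 3 libraries against 3. Changes named here are therefore read bin by bin, and it is said where centring ends a call. Centring gives every library the same median in the bins bound in both lines. It would thus also take off a true general difference in binding there, so a call that it ends is not shown to be false.

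To separate bound bins from bins that are high in any library, a bin was called enriched in a line when its mean ChIP signal was at least 4 times the input level there. This left 12394 enriched bins in SW480 and 5110 in HT29. Common bins, enriched in both lines, numbered 3258 in 1931 regions. They made up 26.3% of the enriched bins of SW480 and 63.8% of those of HT29. SW480 specific bins, enriched in SW480 alone and called higher there, numbered 6055 in 3785 regions, and HT29 specific bins 1091 in 541 regions. Without HT29 ERβ replicate 1 the HT29 specific bins fell to 516 and the common bins to 2083. After centring on the common bins there were 3554 SW480 specific and 1810 HT29 specific bins. At a 2-fold limit over input, common bins (13090) outnumbered SW480 specific bins (9911), so their order depends on the limit. The remaining enriched bins were 3081 of SW480 and 761 of HT29 that lacked a call for that line. Since the test and the enrichment define the classes, the differences within them describe the classes and test nothing.

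In common bins the ranges of the lines overlapped, through HT29 ERβ replicate 1 alone. The median signal was 2.68, 5.12 and 4.57 in SW480 ERβ replicates 1 to 3 and 4.73, 2.39 and 2.27 in HT29 ERβ, against 0.430 and 0.460 in the inputs. Of the 3258 common bins, 741 were higher in SW480, 105 were higher in HT29 and 2412 were not called. After centring on these bins 481 were higher in SW480 and 420 in HT29. In SW480 specific bins the median was 2.10, 3.15 and 3.00 in SW480 ERβ and 0.844, 0.596 and 0.606 in HT29 ERβ, where the input stood at 0.439. In HT29 specific bins it was 0.507, 0.723 and 0.714 in SW480 ERβ, above an input of 0.352, and 4.21, 2.02 and 1.87 in HT29 ERβ. The 41625 bins enriched in neither line (74.5%) had medians of 1.25 to 1.52 in SW480 ERβ over an input of 0.680 and of 0.945 to 1.26 in HT29 ERβ over an input of 0.781.

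**Figure D1:**
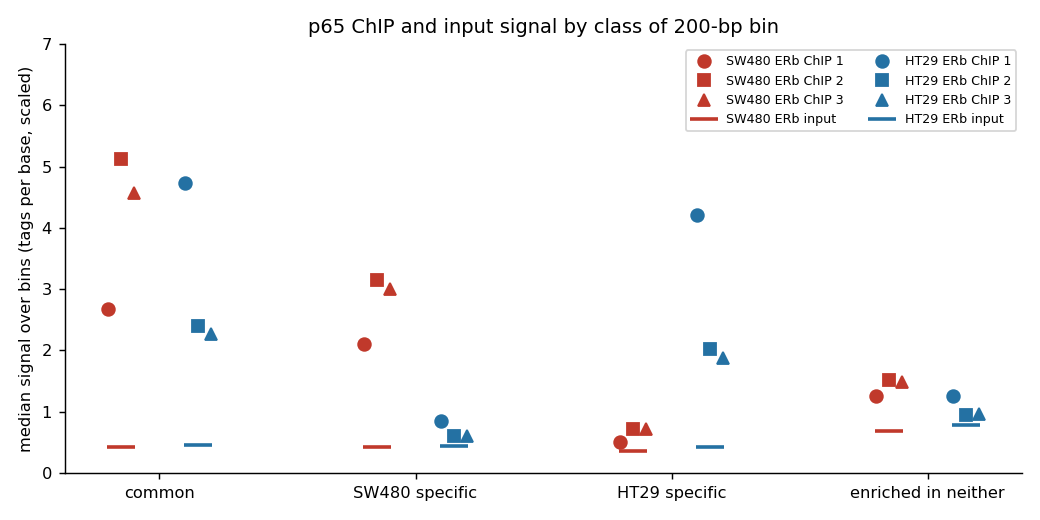
Median p65 signal (tags per base, scaled) of each ERβ ChIP library, drawn as a point, and of each ERβ input, drawn as a line, over the bins of 4 classes. SW480 and HT29 points interleave in common bins and separate in the specific bins, and HT29 replicate 1 stands highest of its group in each class.

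Calls in bins enriched in neither line moved with the input. Of these, the 12464 called for SW480 had a median input difference of 0.59 (log2, SW480 minus HT29) and 80.7% had the higher input in SW480, whereas the 4669 called for HT29 had a median of -1.61 and 2.18% had the higher input in SW480. Chromosome 8 held 9258 of the 55871 bins, 8689 of them enriched in neither line, and its median 10-kb input was 0.602 in SW480 and 1.28 in HT29. The largest region, with 1047 bins, lay beyond MYC on this chromosome. With the input difference taken off each bin, 17823 bins were called for SW480 and 3258 for HT29. The full log2 input ratio was taken off log2(signal + 1), which understates differences of weak bins, so the correction can overshoot there. Under that correction 5286 of the 6055 SW480 specific bins remained called for SW480, and 672 of the 1091 HT29 specific bins for HT29. The part of copy number in the input was not tested.

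**Figure D2:**
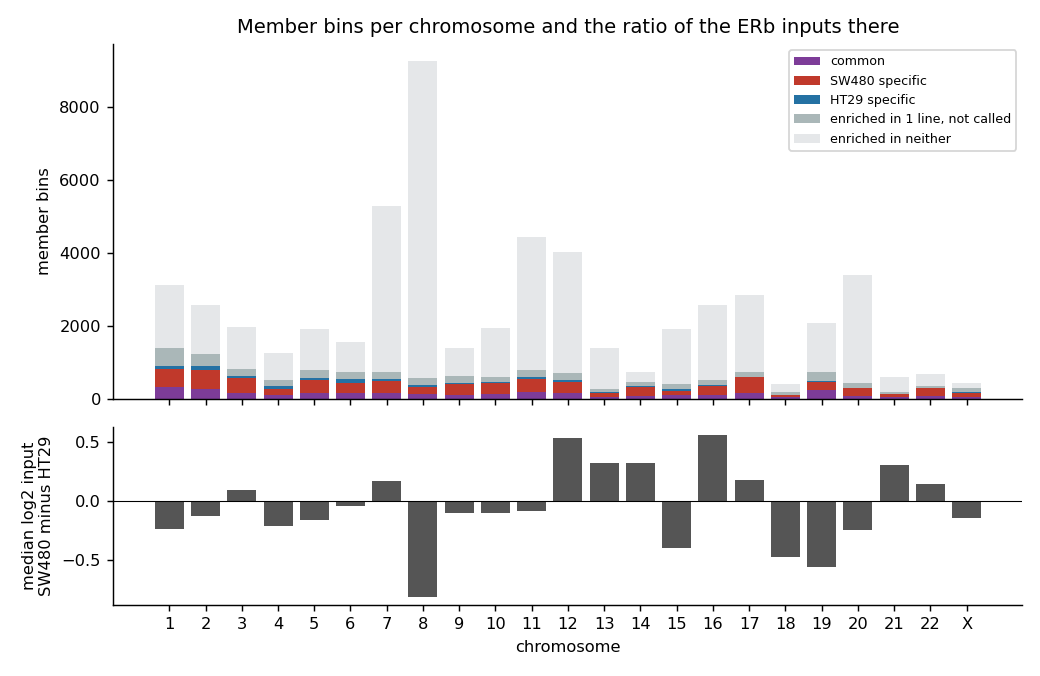
Upper panel, the number of 200-bp bins per chromosome, stacked by class. Lower panel, the median log2 ratio of the ERβ inputs (SW480 minus HT29) in those bins. Chromosome 8 has the most bins, 9258, of which 8689 are enriched in neither line, and the lowest input ratio, -0.81.

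Among SW480 specific regions with a start within 50 kb, the largest log2 difference lay near PRKAR2A, a regulatory subunit of protein kinase A. The site was in an intron, 4951 bp upstream of the nearest annotated start of that gene. Its summit held 12.1, 17.8 and 14 in SW480 ERβ and 0.450, 0.785 and 0.996 in HT29 ERβ. The log2 difference was 3.16 ± 0.29 SE (adjusted p = 6.2e-06, limma). With an HT29 ERβ mean of 0.744, this bin met the signal limit through SW480 alone. Regions in this paragraph were ranked on the difference itself, so the p-value and the gaps between lines describe them and test nothing. A region 43883 bp downstream of the start of NCEH1, a cholesterol ester hydrolase, reached 18.9, 34.7 and 27.9 in SW480 ERβ and 2.17, 1.63 and 2.67 in HT29 ERβ. An exon bin 196 bp past the start of KIFC3, a kinesin motor, held 8.99, 13.6 and 14.4 against 0.590, 0.450 and 0.621. Every HT29 library lay below every SW480 library at these 3 sites. The HT29 means there were 2.86, 2.87 and 1.02 times the HT29 input level, in the same order. Of the 10 largest differences, 3 fell in promoters. They were those of ADAMTSL2, a secreted matrix glycoprotein (2.92 ± 0.31), LHFPL6, a membrane protein (2.86 ± 0.28), and DNMT3B, a de novo DNA methyltransferase (2.83 ± 0.32). The LHFPL6 promoter held 5.42, 10.1 and 8.81 in SW480 ERβ and 0.21, 0.372 and 0.1 in HT29 ERβ, whose input was 0.370. The DNMT3B promoter held 9.65, 20.8 and 13.2 against 1.64, 0.819 and 0.903. The other regions of the 10 were near ERICH1 (2.95), CMIP (2.87), UNC93A (2.85) and ENSG00000287725 (2.84). At ERICH1 the HT29 mean was 3.64 times its input level, near the 4-fold limit. All 10 kept their call under both other scalings.

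Among HT29 specific regions with a start within 50 kb, the largest log2 difference lay 8675 bp from the start of HSPBAP1, which encodes a partner of a small heat shock protein. Its summit held 0.370, 0.380 and 0.567 in SW480 ERβ and 14.9, 7.01 and 4.73 in HT29 ERβ. The log2 difference was -2.65 ± 0.33 SE (adjusted p = 4.9e-05, limma). With an SW480 ERβ mean of 0.439, this bin met the signal limit through HT29 alone. These regions too were ranked on the difference itself, so the p-value and the gaps between lines test nothing. The promoter of TANK, an adaptor that binds TRAF proteins upstream of NFκB, held 0.602, 1.24 and 1.02 in SW480 ERβ and 10.8, 5.49 and 5.04 in HT29 ERβ (-2.0 ± 0.31). A region near PIGR, the receptor that carries immunoglobulin A across mucosal epithelium, held 0.410, 0.768 and 0.570 against 8.65, 3.75 and 4.06 (-1.96 ± 0.29). It lay in an intron, 2635 bp upstream of the nearest annotated start. The SW480 means at these 3 summits were 2.20, 2.39 and 1.95 times the SW480 input level, in the same order. Regions near DUSP16, a MAP kinase phosphatase (-1.94), MGAT5, a glycosyltransferase of N-glycan branching (-2.20), ZC3H18 (-2.32) and ARFGEF2 (-2.01) were also among the 10. Those of DUSP16 and MGAT5 lay 21385 and 36803 bp from the start. The other 3 were near MAL2, FBXO32 and FRY, where the input was higher in HT29 by 1.99, 1.61 and 1.22 on the log2 scale given as HT29 minus SW480. With the input taken off they lost their call (limma adjusted p = 0.21, 0.14 and 0.10), though that correction can overshoot in weak bins. Their fold over input was 1.3, 1.2 and 2.1 in SW480 ERβ and 5.7, 5.0 and 15.2 in HT29 ERβ, in the same order.

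**Figure D3:**
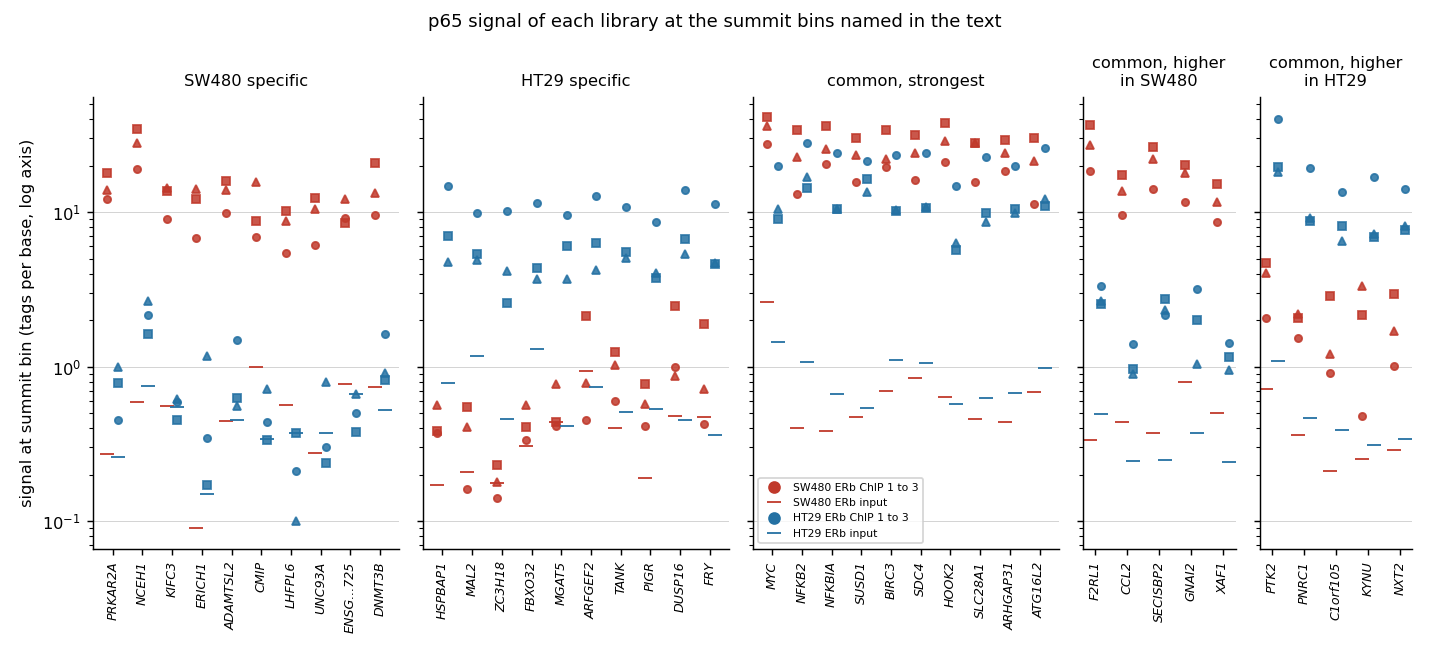
Signal of each ERβ ChIP library (points, log axis, tags per base) and of the ERβ inputs (dashes) at the summit bins named in the text, in 5 panels by class. In both specific panels and both panels of called common bins the points of the lines do not overlap, whereas all but MYC and HOOK2 of the 10 strongest common bins have overlapping points.

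Among the 10 strongest common regions were the promoters of NFKBIA, NFKB2 and BIRC3. The promoter of NFKBIA, which encodes IκBα, held 20.6, 36.4 and 25.6 in SW480 ERβ and 24.3, 10.4 and 10.4 in HT29 ERβ. The HT29 replicate 1 value lay among the SW480 values, and the log2 difference of 0.90 ± 0.26 (limma adjusted p = 0.011) was lost when libraries were centred on the common bins (0.50, adjusted p = 0.26). The promoter of NFKB2, the precursor of the p52 subunit, held 13.1, 34.0 and 22.9 against 28.2, 14.3 and 16.8. The lines overlapped there, and the difference of 0.19 ± 0.27 was not called and turned to -0.22 under that centring. The promoter of BIRC3, an inhibitor of apoptosis, held 19.5, 33.9 and 22.2 against 23.5, 10.2 and 10.3, and its call (0.81, adjusted p = 0.021) was lost in the same way (0.41, adjusted p = 0.36). SDC4, a syndecan of the cell surface, had 0.67 with a limma adjusted p of 0.053. With the input taken off it was called (1.07, adjusted p = 0.0088), as was SUSD1 (0.66, adjusted p = 0.030). Among the 10, 3 gained a call without HT29 ERβ replicate 1 and 3 without SW480 ERβ replicate 1. HOOK2 was higher in SW480 under every scaling, with 21.2, 37.8 and 28.9 in SW480 ERβ and 14.8, 5.72 and 6.26 in HT29 ERβ (1.69 ± 0.28). That name is only of the gene with the nearest annotated start, 1119 bp away. The bin read for the AP-1 gene JUNB lies close by, at chr19:12788801-12789000. Which gene this summit serves was not tested. The others were SUSD1 (0.38) and ATG16L2 (0.33), not called, SLC28A1 (0.83) and ARHGAP31 (0.85), called in SW480 but not after centring (0.43 and 0.45, adjusted p = 0.31 and 0.30), and the summit of the large region 437828 bp from MYC (1.41), not called after the input was taken off (adjusted p = 0.083). The calls of NFKBIA, BIRC3, SLC28A1 and ARHGAP31 were each lost too without SW480 ERβ replicate 2, without HT29 ERβ replicate 2 and without HT29 ERβ replicate 3 (adjusted p from 0.051 to 0.15), and that of SLC28A1 also without SW480 ERβ replicate 3.

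Some common regions still differed widely between the lines. The region 12271 bp into F2RL1, which encodes the protease-activated receptor PAR2, held 18.5, 36.9 and 27.1 in SW480 ERβ and 3.31, 2.56 and 2.64 in HT29 ERβ (log2 difference 2.85 ± 0.27). CCL2, a chemokine that draws monocytes, had 9.61, 17.4 and 13.7 against 1.40, 0.968 and 0.891 at 2573 bp upstream (2.78 ± 0.30). The HT29 mean at CCL2 was 4.04 times the HT29 input level, just over the 4-fold limit for a common bin. SECISBP2 (2.64), GNAI2 (2.54) and XAF1 (2.53) followed, and the SW480 libraries were all above the HT29 libraries at these 5 regions. In the other direction, KYNU, an enzyme of tryptophan breakdown, had 0.477, 2.14 and 3.31 in SW480 ERβ and 16.9, 6.85 and 7.20 in HT29 ERβ at 3156 bp upstream (-1.95 ± 0.40). PNRC1, a nuclear receptor coactivator, had 1.52, 2.05 and 2.19 against 19.4, 8.82 and 9.19 at 44650 bp upstream, between genes (-2.13 ± 0.32). C1orf105 (-1.98) and NXT2 (-1.94) were similar, and PTK2 (-2.51) lost its call with the input taken off (limma adjusted p = 0.063). The fold over input at PTK2 was 5.04 in SW480 ERβ and 20.5 in HT29 ERβ.

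The classes lay in different places relative to genes. Of common summits, 28.8% (exact 95% interval 26.8 to 30.9, over regions) were in promoters, taken to reach 1 kb before and 100 bp past a start, against 17.6% (16.4 to 18.8) of SW480 specific and 7.58% (5.49 to 10.1) of HT29 specific summits and 22.8% of all 22324. The median distance to the nearest start was 4454, 11152 and 22423 bp in the same order. HT29 specific summits lay between genes in 51.6% and in introns in 38.8%. The promoter share of common bins went 18.6%, 26.7%, 35.5% and 34.6% over 4 equal groups from lowest to highest mean signal. The lowest common group had a median signal of 2.31, and SW480 specific bins of a group with median 2.06 had a promoter share of 19.0%. The part of height in the class shares was not tested. Read by place, 817 of the 1804 enriched promoter regions (45.3%) were higher in SW480 and 52 (2.88%) in HT29, while of the 3103 enriched regions between genes 1730 (55.8%) were higher in SW480 and 312 (10.1%) in HT29.

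Motifs were searched in the 200-bp summit bins as exact words on both strands. The NFκB consensus, the site of p65 itself, was found in 68.7% (95% interval 66.5 to 70.7) of common, 46.7% (45.1 to 48.3) of SW480 specific and 53.1% (48.7 to 57.3) of HT29 specific summits. It was in 19.3% of summits enriched in neither line, in 5.22% of windows 1 kb to either side and in 2.90% of 145549 genomic bins taken evenly. The share followed the height of the bin. In 4 equal groups of bins ordered from the lowest to the highest mean signal it went 59.2%, 64.6%, 74.5% and 76.4% in common bins, 40.7%, 44.1%, 47.5% and 54.7% in SW480 specific bins and 42.7%, 46.7%, 54.8% and 68.2% in HT29 specific bins. The word GGAAATTCCC was in 7.20% of common summits, 4.68% of SW480 specific and 6.65% of HT29 specific ones, against 0.0454% of the genome, and GGAAAGTCCC in 6.73%, 2.56% and 3.88%, against 0.0302%.

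Words of other factors differed in share between the classes. RUNX words (TGTGGTT or TGTGGTC), bound by a family of developmental transcription factors, were in 18% (16.8 to 19.3) of SW480 specific summits, against 6.78% (5.70 to 8.0) of common and 5.73% (3.93 to 8.04) of HT29 specific ones and 6.15% of the genome. Outside promoters the shares were 20.1%, 8.30% and 5.80%. TEAD words (ACATTCC) were in 7.56%, 5.49% and 5.92%, and 3.19% of the genome. AP-1 words (TGACTCA, or TGAGTCA on the other strand) were in 13.7% of common, 13.1% of SW480 specific and 8.87% of HT29 specific summits, against 2.94% of the genome. The FOXA word TGTTTAC was in 10.2% (7.75 to 13.0) of HT29 specific summits, against 5.49% of common and 4.17% of SW480 specific ones and 3.08% of the genome. CDX words (TTTATGG or TTTATTG) were in 11.6% of HT29 specific summits, near the 10.7% of the genome, against 5.02% of common and 4.10% of SW480 specific ones, and the GATA word AGATAAG in 5.55%, 1.76% and 1.51%, against 2.87% of the genome. HT29 specific summits had a median GC content of 44.5%, against 55.5% in common and 56.0% in SW480 specific ones and 40.0% in the genome, and the part of base composition in these shares was not tested. HNF4 words (CAAAGTCCA or CAAAGTTCA) were in 0.978% to 1.11% of each class, against 0.519% of the genome. The estrogen response element, GGTCA and TGACC with any 3 bases between them, was in 0 of 1931 common, 4 of 3785 SW480 specific and 0 of 541 HT29 specific summits. It was in 11 of 14303 summits enriched in neither line and in 26 of 145549 genomic bins. Such counts are too small for the classes to be compared. These matches are of letters only, and binding by these factors was not measured.

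**Figure D4:**
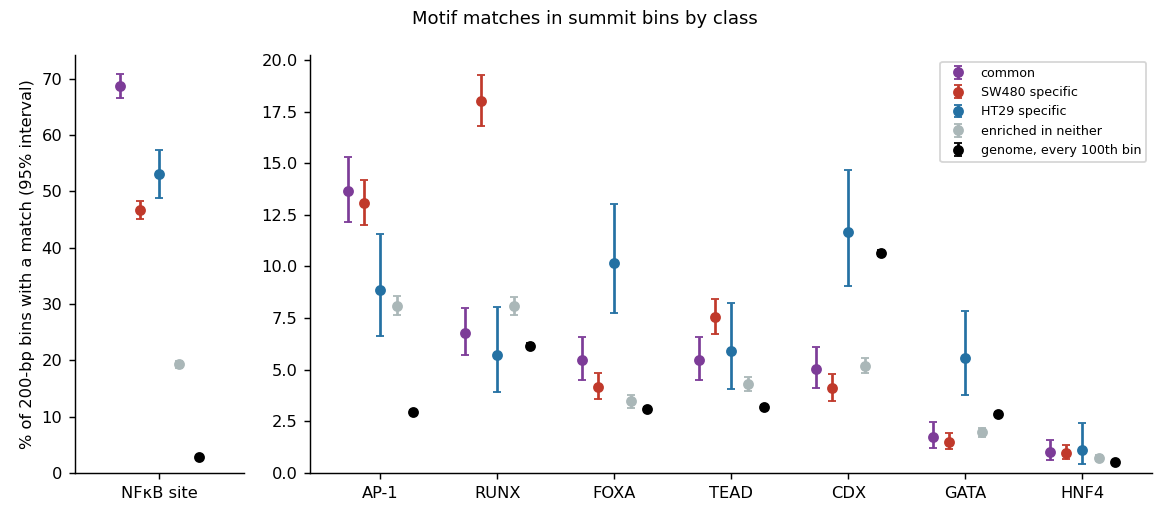
Share of 200-bp summit bins (percent, with exact 95% intervals over regions) that hold a match to each motif, by class and in every 100th bin of the genome, with the NFκB site on an axis of its own. RUNX words stand apart in SW480 specific bins at 18%, and FOXA words in HT29 specific bins at 10.2%.

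Genes were read at their strongest enriched bin in a window that began 50 kb before a start and ended 2 kb after it, so a gene here is a neighbour of a bin and not a shown target. Of 19962 protein-coding genes, 6261 had such a bin, 2923 of which (46.7%) were higher in SW480 and 330 (5.27%) in HT29, with a median log2 difference of 0.66. Common bins made up 2241 of the 6261, SW480 specific bins 2315 and HT29 specific bins 274. The lists are set beside these shares with no test of the difference. Of 12 genes of the IκB family and of ubiquitin-editing feedback, 10 had an enriched bin, 9 of them common, and 5 were higher in SW480 and none in HT29 (median 0.72). TNFAIP3, the A20 feedback inhibitor, held 16.1, 30.7 and 23.9 in SW480 ERβ and 19.7, 9.51 and 9.11 in HT29 ERβ (0.87, adjusted p = 0.014, limma). That call was lost after centring on common bins (0.47, adjusted p = 0.26). NFKBIB, an IκB protein, had 10.0, 21.3 and 17.9 against 24.0, 11 and 13.2 (0.04, not called). Of the 5 Rel and NFκB subunit genes, 4 were common and uncalled and 1, RELA itself, was higher in SW480 (0.90). RELB had 8.35, 18.2 and 11.1 against 13.8, 7.77 and 7.64, NFKB1 had a difference of 0.47 and REL one of 0.37.

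Of 10 CXC chemokine genes 9 had an enriched bin, 7 of them common (CXCL3 and CXCL5 share a bin, as do CXCL9 and CXCL10), and CXCL6 alone was called, in SW480. CXCL1, a neutrophil attractant, held 9.81, 12.6 and 16.8 in SW480 ERβ and 9.93, 7.19 and 6.85 in HT29 ERβ (0.63, adjusted p = 0.055). CXCL2 had 9.22, 14.5 and 12.2 against 10.5, 7.18 and 7.50 (0.46). Of 21 CC chemokine and cytokine genes, 11 had an enriched bin, 9 of them common, and 4 were higher in SW480 and 1, TNFSF15, in HT29. IL32 held 10.5, 21.0 and 16.9 against 11.4, 7.23 and 5.94 (0.89), and the gut chemokine CCL20 held 5.83, 11.2 and 12.5 against 11.5, 6.49 and 8.19 (0.13, not called). Of 19 survival and death genes, 13 had an enriched bin, 6 of them higher in SW480 and none in HT29, and BIRC2 and BIRC3 share a bin. TRAF2, a signalling adaptor of the TNF receptor, held 9.32, 13.2 and 11.7 against 17.4, 7.08 and 8.82 (0.12), and BBC3, the cell death gene of PUMA, had 0.46. Neither was called. All 6 enriched genes of 24 in interferon response and antigen presentation were common. IRF1 was not called (0.70), and ISG15 (1.05) and IRF2 (1.04) were higher in SW480.

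Among Wnt pathway genes, SW480 specific bins outnumbered the others. Of 20 genes, 13 had an enriched bin, 10 of them SW480 specific, 1 common and 1 HT29 specific, and 11 were higher in SW480 and 1, LRP6, in HT29 (median 1.01, against 0.66 over all genes). Over all genes 2315 of 6261 were SW480 specific, and the difference from this list was not tested. NOTUM, a secreted inhibitor of Wnt proteins, held 13.1, 17.7 and 15.2 in SW480 ERβ and 1.95, 1.36 and 1.84 in HT29 ERβ (2.59 ± 0.28, adjusted p = 2.0e-05, limma), with no overlap. TCF7, a nuclear partner of β-catenin, had 2.50, 3.37 and 3.31 against 1.42, 0.907 and 0.882 (0.98), and WNT5B had 0.78. TCF7L2 was not called (-0.27). Both RUNX factor genes with an enriched bin were SW480 specific. RUNX1 held 2.42, 5.18 and 3.95 against 2.13, 0.786 and 0.523 (1.21) and RUNX3 1.73, 3.37 and 3.82 against 0.706, 0.180 and 0.482 (1.42). All 4 enriched genes of 12 in prostaglandin and redox metabolism were SW480 specific, among them the quinone reductase NQO1 (1.42) and PTGER4, a prostaglandin receptor (0.91). Of 25 nuclear receptor genes 10 had an enriched bin and 7 were higher in SW480. VDR, the vitamin D receptor, held 12.9, 22.4 and 18.8 against 12.9, 7.83 and 8.64 (0.82), and PPARA had 1.35. Both housekeeping genes of 12 with an enriched bin, PPIA (1.34) and ACTB (1.85), were also higher in SW480, each at a bin far upstream of its start.

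Genes of the colon epithelium were called in both directions. Of 22 colon transcription factor genes 6 had an enriched bin, 3 of them higher in SW480 and 1 in HT29. CDX2, a homeobox factor of the intestine, held 5.13, 8.68 and 5.64 in SW480 ERβ and 1.29, 0.567 and 0.490 in HT29 ERβ (2.07). EHF, an epithelial ETS factor, held 1.37, 2.21 and 2.83 against 13.4, 6.42 and 6.69 (-1.60), and ELF3 was not called (0.20). Of 27 epithelial junction and mucosal genes, 15 had an enriched bin, 7 of them higher in SW480 and 2, PIGR and CEACAM5, in HT29. The mucin gene MUC5AC had 10.9, 16.9 and 19.4 against 6.82, 5.54 and 5.22 (1.26), and ICAM1, an adhesion molecule for leukocytes, had 9.10, 12 and 12.5 against 6.22, 2.74 and 4.07 (1.23). LCN2, an antibacterial lipocalin, had 4.06, 4.95 and 3.00 against 12.2, 5.82 and 5.07, and was not called (-0.73, adjusted p = 0.080). Of 23 mesenchymal and migration genes, 11 had an enriched bin, 4 of them higher in SW480 and none in HT29. PLAU, the urokinase protease, had 5.77, 7.92 and 10.1 against 0.784, 1.04 and 1.34 (2.10), whereas MMP1 (0.29) and PLAUR (0.08) were not called.

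Of 17 AP-1 and immediate early genes, 13 had an enriched bin, 5 of them higher in SW480 and none in HT29. MAFF held 5.57, 9.44 and 12.7 against 2.73, 2.26 and 1.66 (1.62) and FOSL1 had 1.34, while FOSB was not called (0.47). Of 21 genes of MAP kinase phosphatases and EGFR feedback, 12 had an enriched bin, 7 higher in SW480 and 1, DUSP16, in HT29. EGFR held 6.40, 8.62 and 6.39 in SW480 ERβ and 14.6, 8.04 and 6.16 in HT29 ERβ, and was not called (-0.32). Of 21 circadian clock genes, 13 had an enriched bin, 3 higher in SW480 and 1, HLF, in HT29. CREB1 held 13.8, 22.2 and 18.3 against 12.8, 6.39 and 5.49 (1.1), and DBP (-0.01), CRY2 (0.56) and PER1 (0.79) were not called.

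Over all lists, 75 genes were called higher in SW480 and 7 in HT29. Among all 6261 protein-coding genes with an enriched bin the shares were 46.7% and 5.27%. The share of calls kept under other scalings was not worked out over all genes, so the counts below are not read as traits of the lists. After centring on the common bins 47 of the 75 and all 7 were still called, and with the input taken off 66 and 6. Wnt pathway genes kept 9 of 11 SW480 calls after centring and mesenchymal genes 4 of 4. The IκB and feedback genes kept 1 of 5, CYLD, and the MAP kinase phosphatase and EGFR genes 2 of 7. Among the genes named above, centring ended the calls of RELA, CXCL6, IL32, VDR, WNT5B, PTGER4 and CREB1 (limma adjusted p from 0.052 to 0.29). Taking off the input ended those of NFKBIA, TNFAIP3, VDR, WNT5B, ICAM1, IRF2 and CEACAM5 (adjusted p from 0.052 to 0.24).

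The 6 mock libraries had no part in choosing the bins, and they were read at the same bins. In mock cells 11195 bins (20.0%) were higher in SW480 and 12418 (22.2%) in HT29. HT29 specific bins were already present in mock cells of that line, where 816 of 1091 (74.8%) were enriched, against 2 (0.183%) in SW480 mock, and 1073 (98.4%) were called for HT29. Of the 6055 SW480 specific bins, 1888 (31.2%) were called for SW480 in mock and 139 for HT29, with a median signal of 1.23 in SW480 mock and 0.799 in HT29 mock. By fold over input, 531 (8.77%) were enriched in SW480 mock and 713 (11.8%) in HT29 mock, but the median mock input there was 0.630 in SW480 and 0.360 in HT29, against 0.420 in the SW480 ERβ input. In mock cells 90.2% of the common bins were enriched in HT29 and 34.8% in SW480, where the mock input was again higher (0.622, against 0.450 in HT29 mock and 0.430 in the SW480 ERβ input). The part of the inputs in these shares was not tested. By the test on ChIP signal alone, 1352 common bins (41.5%) were called for HT29 in mock and 147 (4.51%) for SW480. The median signal in common bins was 1.66, 2.09 and 2.25 in SW480 mock and 5.43, 2.65 and 2.84 in HT29 mock. All 3 SW480 mock libraries lay below the 3 SW480 ERβ libraries there, and the ranges of HT29 mock and HT29 ERβ overlapped, with each HT29 mock library above the ERβ library of its number. Since these bins were chosen for high signal over input in the ERβ libraries, the order of ERβ and mock in them is a description and no test. Among SW480 specific summits, 47.7% of the 417 with a RUNX word and no NFκB match were higher in SW480 mock too, against 41.1% of the 336 with an AP-1 word and no NFκB match, 34.6% of the 1337 with none of the 3 motifs and 26.1% of the 1768 with an NFκB match. The differences between these shares were not tested.

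The line difference with ERβ was then set against that in mock by the interaction term over the 12 ChIP libraries. It was called higher for SW480 in 2275 bins (4.07%) and for HT29 in 4 (0.00716%). The SW480 count ranged from 818 (without HT29 ERβ replicate 2) to 6502 (without HT29 ERβ replicate 1) when 1 library was left out, and was 6280 without SW480 ERβ replicate 1. ERβ and mock libraries of the same number deviated together in both lines, and with replicate number as a block the counts were 11277 (20.2%) and 117 (0.209%). The term was called for SW480 in 1489 of 6055 SW480 specific bins (24.6%), in 222 of 3258 common bins (6.81%) and in none of 1091 HT29 specific bins, and with the block in 4013, 2088 and 92. The sign of the line difference with ERβ, which is part of the term, defines both specific classes, so their counts describe the classes and test nothing. The median term was 0.84 in SW480 specific and 0.85 in common bins. When the 12 libraries were centred on the common bins, a choice made after seeing the data, the medians were 0.11 and -0.04 and the calls fell to 73 for SW480 and rose to 355 for HT29. The small median in common bins follows from the centring itself. The bins were chosen on the signal of ERβ libraries. With the limit placed on the mean of all 12 libraries, also chosen after seeing the data, 1329 bins were called for SW480.

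The bins with the largest terms were low in SW480 mock cells. The region 15290 bp from TRIM56, a ubiquitin ligase of innate immunity, held 6.31, 10.9 and 5.77 in SW480 ERβ and 0.193, 0.607 and 0.663 in SW480 mock, against 0.762, 0.839 and 0.550 in HT29 ERβ and 1.53, 0.684 and 0.440 in HT29 mock (term 2.61 ± 0.35 SE, limma adjusted p = 0.00063). Another region lay between genes, 39229 bp from the start of RGS3, a regulator of G protein signalling. It had 7.47, 8.14 and 8.23 in SW480 ERβ and 0.525, 0.546 and 0.695 in SW480 mock. The values there were 0.688 to 1.08 in HT29 ERβ and 0.582 to 1.13 in HT29 mock (term 2.50 ± 0.28). In both regions the SW480 ERβ libraries stood apart from the other 9. The promoter region of TNFAIP2, induced by TNFα, held 7.03, 8.99 and 10.3 in SW480 ERβ and 0.840, 1.09 and 1.31 in SW480 mock, while HT29 had 3.65, 2.10 and 2.31 with ERβ and 5.32, 2.09 and 3.11 in mock (2.48 ± 0.39). PLCB4, a phospholipase, had a term of 2.53 ± 0.35 and a region near POU5F1B one of 2.52 ± 0.36. All 5 kept their call after centring on the common bins, with adjusted p between 0.0084 and 0.048. By contrast, NFKBIA had a term of 0.52 and NFKB2 one of 0.75, neither called without the block (adjusted p = 0.48 and 0.27). With the block NFKB2 was called (adjusted p = 0.0035) and NFKBIA was not (0.057). Both terms turned negative after centring on the common bins, to -0.42 for NFKB2 and -0.65 for NFKBIA, and neither was called (adjusted p = 0.54 and 0.35).

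**Figure D5:**
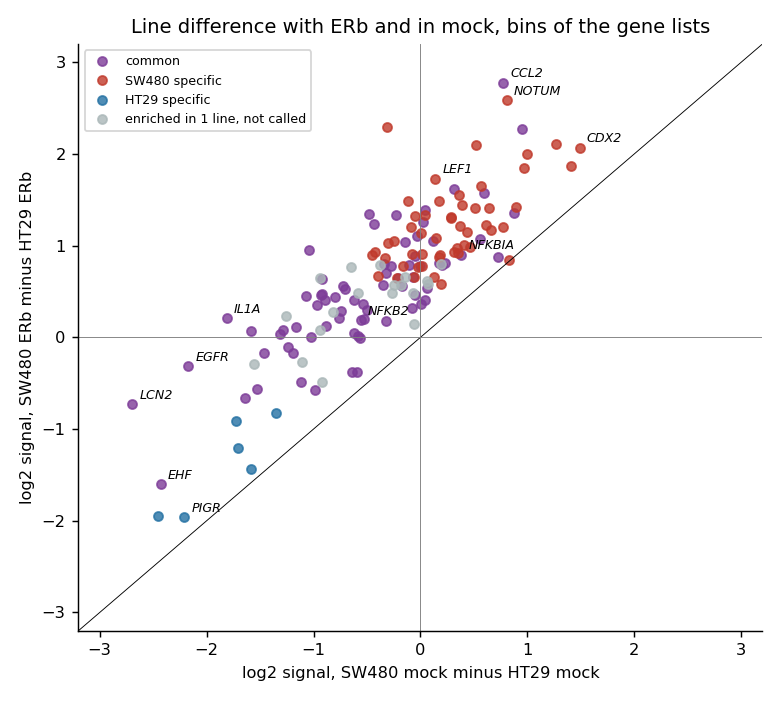
Line difference (log2 signal, SW480 minus HT29) with ERβ on the vertical axis against that in mock on the horizontal axis, at the 151 strongest bins of the listed genes, coloured by class, with the line of equal values. All 151 points lie above the line in the unscaled values, whereas after centring on the common bins the term was above 0 in 82 and below 0 in 69, and LCN2 and EGFR are far left at -2.69 and -2.17.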

How the data were processed

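The p65 ChIP and input libraries were read from 16 tracks. Per the methods, unique reads were aligned with STAR to GRCh38. The deposited tracks hold a HOMER coverage signal, a density of tags per base set to 10 M tags and fragments of 100 bp. Stretches under 0.05 are absent. A mark in their names was taken to mean 1 tag per position, which the methods do not state. Read counts could not be recovered, so the depth is unknown and the count test of the study was replaced by limma.

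Signal was averaged in bins of 200 bp with Python 3.11.15, numpy 2.4.6 and pandas 2.3.3, and bins on chromosomes 1 to 22 and X with a mean of at least 1 over the 6 ERβ ChIP tracks were kept. In all, 14897 bins lay between 1 and 1.1 (median 1.23 in SW480, 0.863 in HT29) and 27636 just outside, between 0.9 and 1 (1.07 and 0.819). A bin could pass through one line alone. The input level was the largest of the bin's input, its mean over 10 kb and 0.1. Fits were made with limma 3.58.1 in R 4.3.3, with a trend, on log2(signal + 1), so differences of weak bins are understated. The fit was also run on simulated bins as a check of the code, and no result here rests on that run. Genes were from GENCODE release 44, sequence was read with pysam 0.24.0, and intervals and exact tests used scipy 1.17.1. Every annotated transcript of a protein-coding gene gave a start, so a start or promoter can lie inside a gene.

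Named regions were the 10 line-specific regions of each line with the largest difference, the 10 strongest common regions, the 5 common regions and the 5 interaction regions with the largest call per direction, and up to 4 members with the strongest bins in each of 17 lists (297 entries, 2 of them older symbols with no match that were not counted). All but the strongest common regions needed a start within 50 kb. CXCL6, TNFSF15, LRP6, HLF, PIGR and CEACAM5 were named among the lists as the few calls of their kind, and RELA and CYLD were named in the same way, all after their values were seen. Some results are not reported here. The members and lists were chosen with earlier results of these data known.

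Replicate numbers were checked for pairing over the 14246 enriched bins. ERβ and mock libraries of the same number correlated after group means were taken off, with r = 0.577, 0.240 and 0.262 in HT29 and 0.310, 0.136 and 0.217 in SW480, all over 0.1. Unmatched numbers reached 0.280 (ERβ 3 with mock 2) and 0.186 (ERβ 2 with mock 3) in HT29, so replicates 2 and 3 there are not told apart by these values. The pairing is read from these values alone. Alternatives covered scaling, input correction, pseudocount, limits on signal and on fold over input, the bin grid, the block, a fit over 12 libraries and leaving out each library. Expression arrays and other assays were not used here.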

Additional observations from a re-analysis of the deposited data

Results flagged for a closer look

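The interaction term was called for 8 named regions. They were picked as the largest calls, from bins chosen on the ERβ signal that enters the term, so their values describe the regions and support nothing further. The term was higher for SW480 near TRIM56 (2.61), PLCB4 (2.53), POU5F1B (2.52), RGS3 (2.50) and TNFAIP2 (2.48), all on the log2 scale. In PLCB4 the SW480 libraries held 3.13, 6.94 and 5.41 with ERβ and 0.420, 0.373 and 0.610 in mock, while the HT29 libraries held 1.66, 0.818 and 0.842 with ERβ and 2.52, 1.75 and 1.64 in mock. In POU5F1B the SW480 libraries held 13.4, 19.6 and 12.5 with ERβ and 1.81, 2.29 and 1.42 in mock, and the HT29 libraries 24.9, 15.1 and 14.2 with ERβ and 25.2, 14.3 and 15.9 in mock.

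The term was higher for HT29 in 3 regions, near ESR2 (-0.93), ZHX1 (-0.86) and TRPS1 (-0.81), and none of them was enriched over input in either line. They met the signal limit through the HT29 ERβ libraries, and with the limit placed on the mean of all 12 libraries all 3 bins drop out. Without 1 library at a time, the call was lost in 2 cases for ESR2 (without SW480 mock replicate 1 or HT29 mock replicate 1), and for ZHX1 and TRPS1 without any of several libraries, with limma adjusted p up to 0.091 and 0.11. The TRPS1 call was also lost when libraries were centred on the common bins (-1.16, limma adjusted p = 0.055). With a pseudocount of 0.5, 1 of the 3 calls was lost. The ESR2 bin lay 174 bp upstream of the nearest annotated start, which need not be the main start of the gene. It held 1.48, 1.92 and 1.29 in HT29 ERβ and 0.180, 0.330 and 0.362 in HT29 mock. ESR2 is also the transfected gene, its coding exons held construct signal in all ERβ libraries, and construct signal in this bin cannot be told apart from genomic signal. ZHX1 and TRPS1 lie on chromosome 8, where their input differed by -1.79 and -1.87 (log2, SW480 minus HT29).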

How the results depend on the processing

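Counts are given in the order higher in SW480 (19267), higher in HT29 (5880), SW480 specific (6055), HT29 specific (1091) and common (3258). A signal limit of 2 gave 4676, 617, 2175 and 342 for the first 4, a limit of 0.5 gave 112758 and 125857 for the first pair, which turned the balance towards HT29, and centring on common bins gave 8803 higher in SW480 with 3554 SW480 and 1810 HT29 specific. Taking off the input gave 3258 higher in HT29. A 2-fold limit over input gave 9911 SW480 specific and 13090 common, an 8-fold limit 1908, 245 and 677 in the last 3 classes, and asking the 4-fold limit of every library in place of their mean 3633, 465 and 1232. Leaving out 1 library gave 12945 to 22010, 4383 to 5662, 4399 to 7771, 516 to 1394 and 2083 to 3852, and the lowest HT29 specific (516) and common (2083) counts were those without HT29 ERβ replicate 1. The mean difference per library of 0.299 became 0.0597 after centring (exact permutation p = 0.8), 0.0217 at a signal limit of 0.5 (p = 0.2) and 0.544 at a limit of 2 (p = 0.1), and ranged from 0.254 to 0.388 without 1 library. In mock, a limit of 2 gave 3028 for SW480 and 2428 for HT29, and leaving out 1 library 8148 to 12873 and 9331 to 13146.

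For the interaction, 2275 and 4 became 11277 and 117 with the replicate block, 994 and 0 with a limit of 2, 1329 and 1 with the limit on 12 libraries, 73 and 355 after centring, and 818 to 6502 and 0 to 23 without 1 library (6502 without HT29 ERβ replicate 1, 6280 without SW480 ERβ replicate 1, 818 without HT29 ERβ replicate 2). The last-named limit and the centring of the interaction were chosen after seeing the data. Between the lines the numbers did not pair the libraries (r = -0.084, -0.044 and 0.017), and a block there gave 14473 and 4923. NFKB2 turned to -0.22 after centring and ranged from -0.12 (without SW480 ERβ replicate 2; -0.0044 without HT29 ERβ replicate 2) to 0.533 without 1 library, and SUSD1 and ATG16L2 turned to -0.0283 and -0.0698 after centring. The causes were not tested. Of the other settings of named regions 502 kept direction and side of the threshold, 44 lost the call and 9 gained it. Read counts per bin could not be recovered, so a bin that was not called can hold binding.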
